A study of Homo sapiens with 8 samples.

Results

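The 53 genes described here encode listed members of the 2-oxoglutarate-dependent dioxygenases, a human enzyme family that succinate can inhibit. Among them are prolyl, lysyl, aspartyl and asparaginyl hydroxylases and demethylases of histones, DNA and RNA. The genes were chosen by a fixed list of symbols, and all 53 were found among the 58051 gene identifiers of the count files. The rule used no measured value, but the list was drawn up with earlier results of these data known. Expression was read by 3′ end mRNA sequencing in 8 libraries of MDA-MB-231 (MDA231) cells, a human breast cancer line of mesenchymal type that lacks hormone receptors. Parental, unmodified cells gave 2 libraries. SDHB-KO cells gave 3 libraries and had SDHB, the iron-sulfur subunit of complex II, knocked out with a TALEN directed at its exon 1. SDHB-KO SDHA-low cells gave 3 libraries and carried the same knockout plus an shRNA knockdown of SDHA, the catalytic subunit. The paper grew the line in DMEM with serum and names no treatment for the sequenced cells. It selected the knockout cells with hygromycin, and the cells given shRNA also with puromycin. The labels number the libraries as biological replicates but do not say whether knockout libraries came from separate clones, and they name no empty-vector group. Setting SDHB-KO against parental cells (below, the knockout contrast) asks what the loss of SDHB does. Setting SDHB-KO SDHA-low against SDHB-KO (the knockdown contrast) asks what the SDHA left behind adds, and SDHB-KO SDHA-low against parental is the double contrast. The SDHB-KO libraries enter the knockout and knockdown contrasts with opposite sign, so opposite changes of a gene in these contrasts are not independent results. A change due to the knockout or the knockdown and a change due to the selection of a subline cannot be told apart. The p-values measure only the spread between these libraries.

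Dioxygenases of this family bind iron and 2-oxoglutarate, split molecular oxygen, hydroxylate their substrate and release succinate and carbon dioxide. Succinate is therefore a product of each reaction, and at a high concentration it competes with 2-oxoglutarate for the active site. Complex II oxidizes succinate to fumarate, so cells without it can accumulate succinate. Tumours with lost SDHB are known for stabilized hypoxia-inducible factor (HIF) and for hypermethylated histones and DNA. In its own assays of these sublines, the paper found more succinate in SDHB-KO cells with an empty vector than in parental cells. In SDHB-KO SDHA-low cells it found less than in those SDHB-KO cells. Some members, among them EGLN3, P4HA1, PLOD2 and KDM3A, are themselves transcribed under HIF. The data below are transcript levels and hold no measure of succinate or of enzyme activity.

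Each library held between 773042 and 1427141 reads on genes, so that 3 reads corresponded to 2.1 to 3.9 CPM (counts scaled to a library of 1000000 reads). Levels are in CPM after TMM scaling. A transcript gives 1 read near its 3′ end in this method, so no length correction was made, and an order of genes is an order of 3′ reads. The deepest library, SDHB-KO SDHA-low replicate 2, differed most from its replicates, where chi-squared over its degrees of freedom was 10.6 and 11.3, against 2.19 to 5.82 for the other pairs. The share of reads not placed on a gene was 22.3% to 22.5% in parental, 26% to 28.6% in SDHB-KO and 18.8% to 24.4% in SDHB-KO SDHA-low libraries, and its part in the results was not tested. Of the markers of the line, VIM, CD44, CAV1, AXL and KRT18 were present in every library, while ANXA1 had only 0 to 5 reads. Of the luminal and epithelial markers, ESR1 and PGR had no read, CDH1, EPCAM and TFF1 had at most 2, and GATA3 had 8 to 20.

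The targeted genes were examined first. SDHA had 64 and 69 reads in the parental libraries, 108, 121 and 140 in SDHB-KO and 7, 17 and 16 in SDHB-KO SDHA-low. The knockdown libraries were thus below all others. SDHA fell by 3.46 on the log2 scale in the knockdown contrast (SE 0.28, edgeR adjusted p = 1.16e-07) and by 2.65 in the double contrast. In the knockout contrast it was 0.80 higher (interval 0.26 to 1.35), called by DESeq2 (adjusted p = 0.092) but not by edgeR (adjusted p = 0.103). SDHB had 4 and 3 reads in parental cells, 0, 3 and 1 in SDHB-KO and 0, 2 and 1 in SDHB-KO SDHA-low, too few to test, and reads at the 3′ end would not show a lesion in exon 1. The knockout label was therefore not checked by these data. Of the 8 subunits and assembly factors of complex II, 5 were tested and only SDHA was called.

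The levels of the 53 members ran from no read to 469 CPM. HIF1AN led, followed by ALKBH7 and PLOD3, all above 70 CPM in each library. At the other end TET1, KDM7A, BBOX1 and TMLHE had no read in any of the 8 libraries, and a count of 0 allows up to the level of 3 reads given above. The authors' minimum, a mean of more than 5 normalized counts, was passed by 34 members and by 7550 genes in all, and only these were tested. The 19 members that were not tested include all 3 TET enzymes, EGLN3, PLOD2, KDM3A, both KDM6 demethylases and JMJD1C. For these the depth did not allow a comparison, and nothing below speaks of them unless they are named. The 3′ ends of P4HA2, ALKBH3, ALKBH4, ALKBH7, KDM2A, KDM2B, KDM4A, OGFOD1 and ASPH meet another gene on the opposite strand. So do those of RIOX1 and of the untested P4HA3, RIOX2, OGFOD2, BBOX1 and TMLHE. On the same strand EGLN1, KDM4A and OGFOD2 meet an unnamed gene, and other such cases are given below. How far such genes share or lose reads was not tested.

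**Figure D1:**
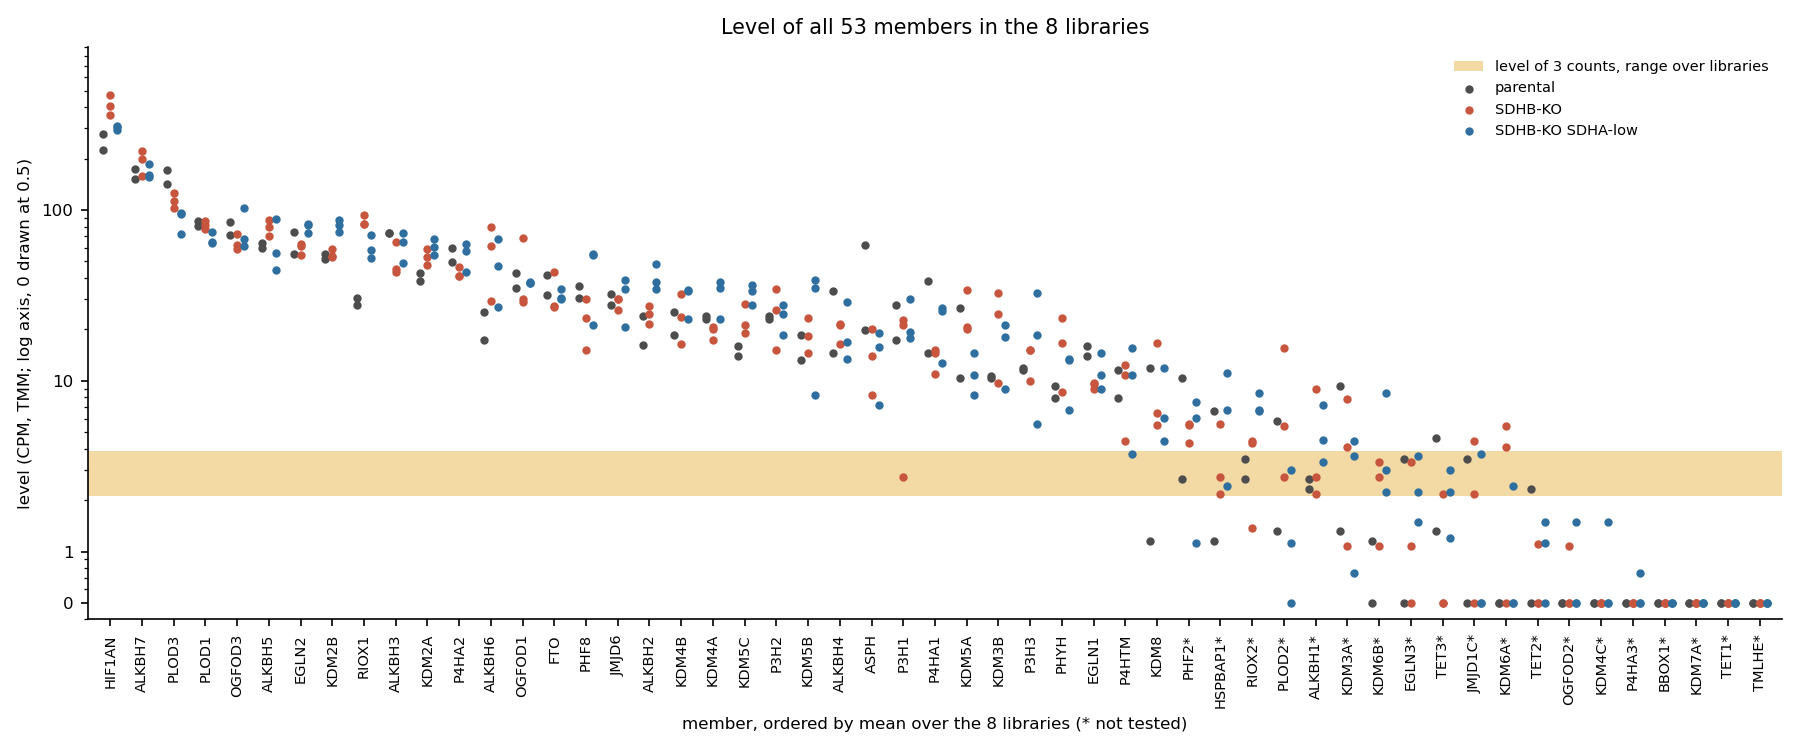
Level of each of the 53 members in CPM (log axis, a level of 0 drawn at 0.5), ordered by the mean over the 8 libraries; each point is 1 library, coloured by group, and the band is the level of 3 reads. The untested members, marked by an asterisk, reach at most 15.6 CPM (PLOD2), and HIF1AN stands above all others.

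In the knockout contrast, 3 of the 34 tested members changed, and all 3 were higher in the knockout: RIOX1, HIF1AN and ALKBH6. DESeq2 called the same 3, but gave many tested members, ASPH and P4HA1 among them, no adjusted p in any comparison. It could not call such members, nor such genes of the lists below. In bulk RNA, more transcript in every cell and more cells that hold it cannot be told apart. A gene was called at an adjusted p below 0.1 in edgeR's quasi-likelihood test with Benjamini-Hochberg adjustment over the 7550 genes. Of all tested genes 5.54% were called in this comparison and 3.14% were called as higher, beside 8.82% of the members. The median log2 fold change of the members was 0.08, against -0.0007 over all tested genes, and 18 of the 34 were above 0. The libraries of both groups did not overlap for 12 members (35.3%), beside 37.9% of all genes. Without parental replicate 1, which leaves 1 parental library that is assumed to vary like the other groups, no gene at all was called in this contrast. Both the share without overlap and the median were thus close to those of all genes.

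In the knockdown contrast no member was called by edgeR or by DESeq2, where 1.51% of all genes were called by edgeR. At an unadjusted p below 0.05 there were 6 members (17.6%), beside 12.1% of all genes. The libraries did not overlap for 9 members (26.5%), beside 17.4%. The median log2 fold change was 0.11, against 0.01 over all genes. In the double contrast there was again no called member by either tool, where 0.914% of all genes were called by edgeR. Here 7 members (20.6%) had an unadjusted p below 0.05, beside 12.3% of all genes. The libraries did not overlap for 10 members (29.4%), beside 30.7%, and the median was 0.05 against 0.02. In a test of any difference among the 3 groups, 1 member passed, RIOX1, where 4.37% of all genes did.

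How much could have gone unseen is shown by the 95% intervals of the fold changes. They lay wholly between -1 and 1 on the log2 scale for 12 of the 34 members in the knockout contrast, for 16 in the knockdown contrast and for 12 in the double contrast. For these a change as large as a doubling lay outside the interval. For the others it lay inside at least on 1 side, and the median half-width was 0.85, 0.71 and 0.82.

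**Figure D2:**
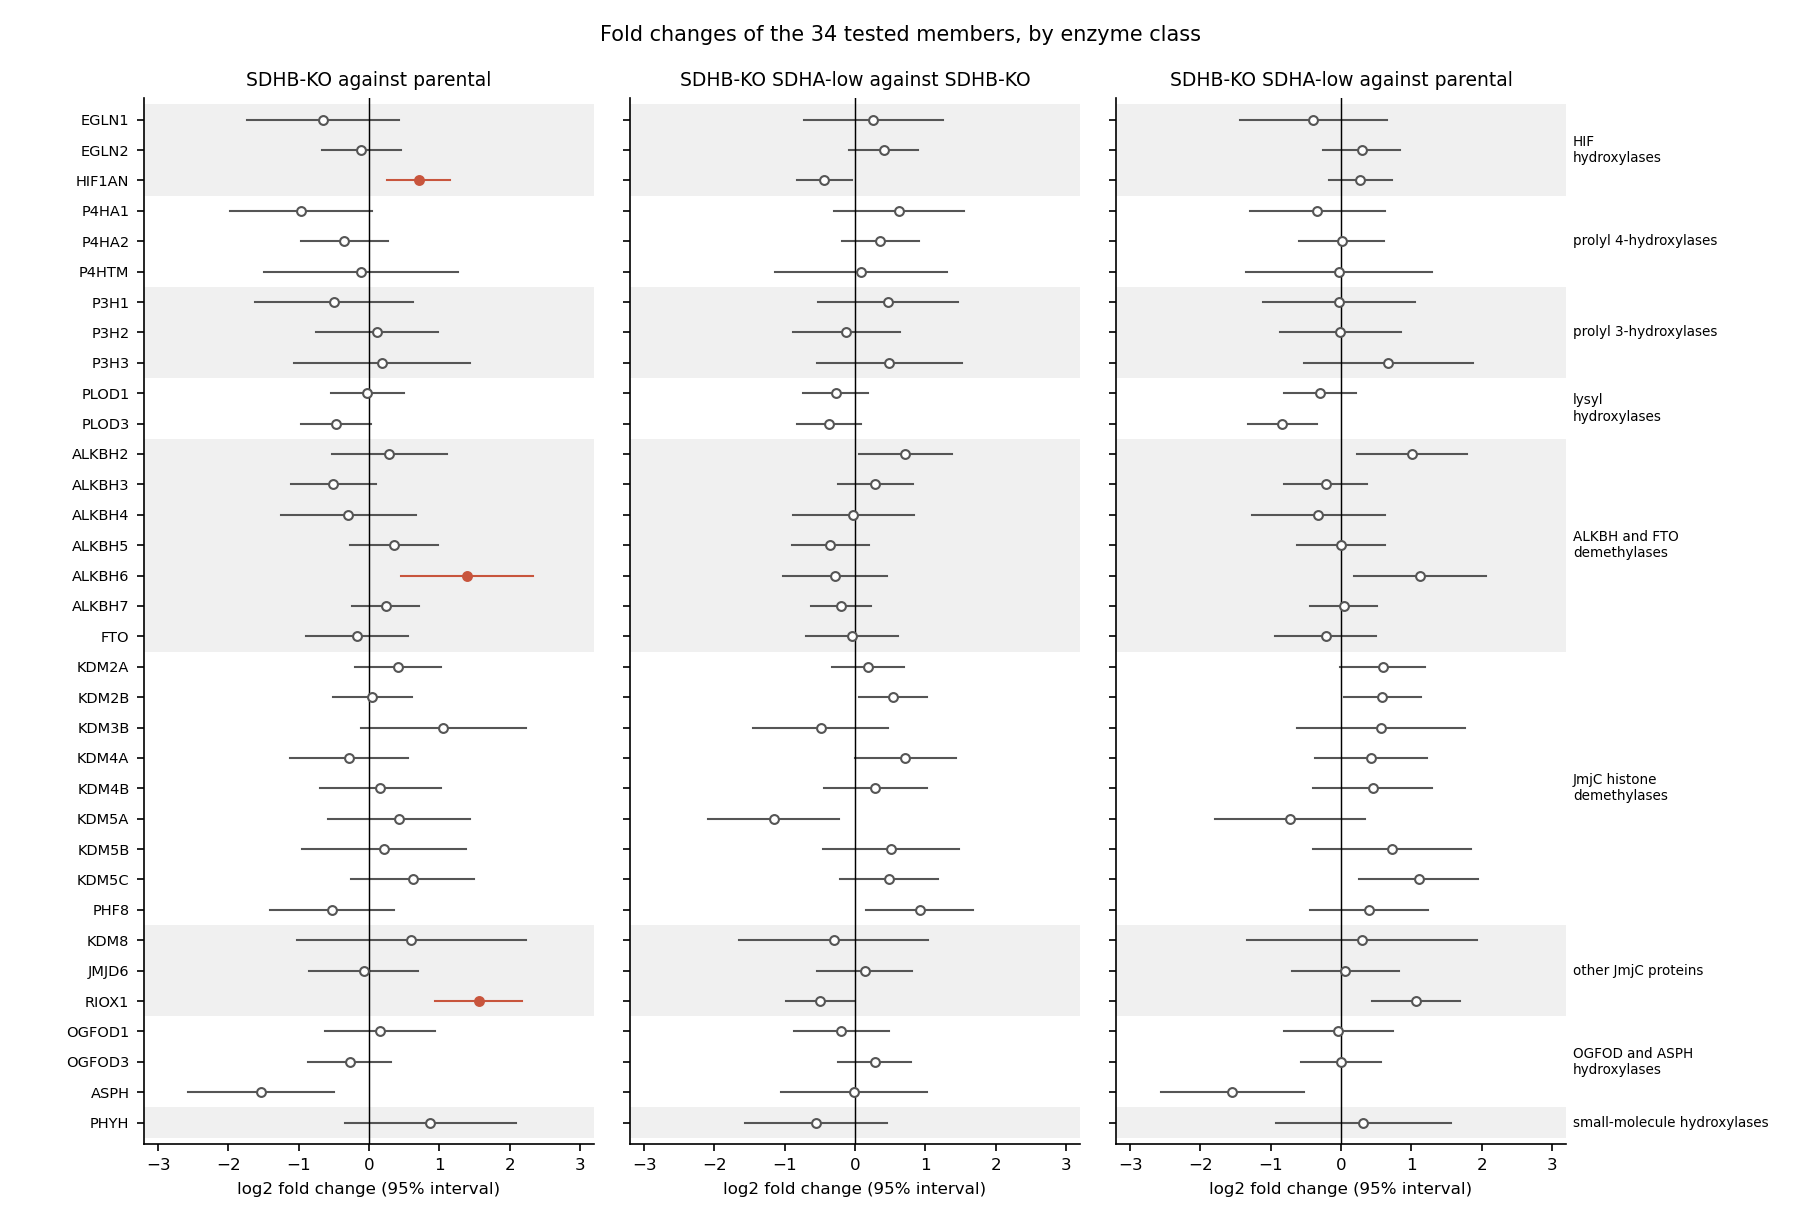
Log2 fold changes of the 34 tested members, grouped by enzyme class, in the 3 comparisons; points are edgeR estimates, lines their 95% intervals, and filled red points passed an adjusted p of 0.1. Only RIOX1, HIF1AN and ALKBH6 in the knockout contrast are filled.

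The HIF hydroxylases are EGLN1, EGLN2 and EGLN3, which hydroxylate prolines of HIF-alpha and so mark it for degradation, and HIF1AN, which hydroxylates an asparagine of HIF-alpha and so blocks the binding of its coactivator. HIF1AN (ENSG00000166135) lies at chr10:100529072-100559998 on the plus strand of GRCh38. Its level was 224 and 277 CPM in the parental libraries, 469, 358 and 405 in SDHB-KO and 294, 309 and 308 in SDHB-KO SDHA-low. The 3 groups did not overlap, with the parental libraries lowest and the SDHB-KO libraries highest. HIF1AN rose 1.64-fold in the knockout contrast (log2 0.71, SE 0.22, adjusted p = 0.084 by edgeR). In the knockdown contrast the log2 difference was -0.43 (95% interval -0.82 to -0.04, adjusted p = 0.36 by edgeR), and against parental cells 0.28 (-0.17 to 0.72, adjusted p = 0.64 by edgeR). The call in the knockout contrast was lost without parental replicate 1 (log2 0.56), parental replicate 2 (0.87), SDHB-KO replicate 1 (0.61) or SDHB-KO replicate 3 (0.74).

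EGLN2 was the leading prolyl hydroxylase. It gave between 76.2% and 88.8% of the reads of the 3 EGLN genes in every library, and the lowest bound of a Wilson 95% interval was 64.4%. EGLN2 stood at 55.5 and 74.3 CPM in parental, 54.7, 63.4 and 61.5 in SDHB-KO and 82.1, 82.8 and 73.5 in SDHB-KO SDHA-low libraries. The SDHB-KO SDHA-low libraries were all above the SDHB-KO libraries, by 0.41 on the log2 scale, with an interval of -0.08 to 0.89 that includes 0 (adjusted p = 0.51 by edgeR). At its 3′ end EGLN2 overlaps the read-through gene RAB4B-EGLN2 on the same strand, whose reads cannot be told apart. EGLN1, the main oxygen sensor in most tissues, was far lower, with 12 and 12 reads in parental, 7, 8 and 9 in SDHB-KO and 9, 12 and 13 in SDHB-KO SDHA-low libraries. Its log2 difference in the knockout contrast was -0.66 (interval -1.73 to 0.42, adjusted p = 0.55 by edgeR). EGLN3, a known HIF target, had 3 and 0 reads, then 0, 3 and 1, then 3, 2 and 2 in the same order, and was not tested. Summed over the 4 genes, the class stood at 332 ± 49.8 CPM (SD, n = 2) in parental, 481 ± 50.2 (n = 3) in SDHB-KO and 397 ± 5.62 (n = 3) in SDHB-KO SDHA-low cells, and HIF1AN gave most of it.

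The DNA before a RefSeq start of some members is shown next, since HIF is a substrate of the class and regulates part of it. The 250 bases upstream of the annotated transcription start are shown for both called members that the RefSeq promoter table (GRCh38.p14) holds, HIF1AN and ALKBH6, and for P4HA1, a textbook HIF target that was not called. They were searched on both strands for the core of the hypoxia response element, ACGTG or GCGTG, which is set in capitals (a core on the other strand appears as its reverse complement). The first of these is also part of the E-box CACGTG.
HIF1AN, chr10:100535693-100535942, plus strand: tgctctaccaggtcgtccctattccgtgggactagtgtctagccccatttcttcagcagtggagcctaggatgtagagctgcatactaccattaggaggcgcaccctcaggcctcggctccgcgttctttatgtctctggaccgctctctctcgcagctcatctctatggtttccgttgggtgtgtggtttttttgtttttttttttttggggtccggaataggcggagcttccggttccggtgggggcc
ALKBH6, chr19:36014240-36014489, minus strand: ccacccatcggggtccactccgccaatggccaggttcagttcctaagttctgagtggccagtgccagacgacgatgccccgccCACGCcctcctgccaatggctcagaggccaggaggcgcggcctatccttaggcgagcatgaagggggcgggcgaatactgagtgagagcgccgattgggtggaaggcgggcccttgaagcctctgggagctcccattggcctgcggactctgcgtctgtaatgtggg
P4HA1, chr10:73096867-73097116, minus strand: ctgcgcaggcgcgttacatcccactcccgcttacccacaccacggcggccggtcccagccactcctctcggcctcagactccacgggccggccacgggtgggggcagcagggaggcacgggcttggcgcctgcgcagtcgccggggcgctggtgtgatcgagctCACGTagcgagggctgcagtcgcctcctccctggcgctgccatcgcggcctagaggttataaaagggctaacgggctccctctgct
The HIF1AN window lies inside the gene span given above, which begins at 100529072, since the RefSeq start lies further downstream. The bases before that first position were not searched. HIF1AN had no core in its window, while ALKBH6 had 1 core that begins 167 bases before the start and P4HA1 had 1 that begins 86 bases before it. Such a short word is common. Among all 35116 starts of RefSeq, 43.2% had at least 1 core in their 250 bases and 6.3% had CACGTG. The table held 69 starts for 48 of the 53 members, and 41 of these starts (59.4%) had a core. RIOX1, ASPH, P4HA3, JMJD6 and RIOX2 were not among them. A match describes the letters only.

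The collagen prolyl 4-hydroxylases P4HA1, P4HA2 and P4HA3 make the hydroxyproline that holds the collagen triple helix together, and P4HTM is a membrane-bound relative. None of the 3 tested members was called by edgeR in any comparison, and none had an unadjusted p below 0.05. DESeq2 did not call P4HA2 and gave P4HA1 and P4HTM no adjusted p. P4HA1 was 38.2 and 14.6 CPM in parental, 10.95, 14.45 and 15.11 in SDHB-KO and 26.5, 12.7 and 25.6 in SDHB-KO SDHA-low libraries. The 2 parental libraries lay further apart than the groups did. Its log2 difference in the knockout contrast was -0.97 (interval -1.98 to 0.05, adjusted p = 0.31 by edgeR). P4HA2 was at 54.7, 42.9 and 54.8 CPM on average in the 3 groups and P4HTM near 10, where WDR6 overlaps its 3′ end. P4HA3 had 1 read in 1 library.

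The prolyl 3-hydroxylases P3H1, P3H2 and P3H3 modify single prolines of collagen. Their group means lay between 11.8 and 25.1 CPM, none was called by edgeR, and none had an unadjusted p below 0.05. DESeq2 gave P3H1 and P3H3 no adjusted p. It gave P3H2 an adjusted p only in the knockdown contrast, without a call. The largest log2 difference was 0.67, for P3H3 in the double contrast. The lysyl hydroxylases PLOD1, PLOD2 and PLOD3 prepare collagen for crosslinks, and PLOD3 also adds sugar to hydroxylysine. PLOD3 was 172 and 142 CPM in parental, 112, 102 and 126 in SDHB-KO and 72.4, 96.3 and 94.7 in SDHB-KO SDHA-low libraries. The groups did not overlap, with the parental libraries highest and the SDHB-KO SDHA-low libraries lowest. The log2 difference in the double contrast was -0.84 (interval -1.33 to -0.34), which missed the threshold at an adjusted p of 0.14 by edgeR. Without SDHB-KO SDHA-low replicate 2 it was -0.92 and passed, with an adjusted p of 0.065 by edgeR. PLOD1 lay between 67.5 and 83.3 CPM on average and did not pass. PLOD2, a HIF target that is often high in invasive cells, had 0 to 14 reads and was not tested. The class sum was 244 ± 27.9 CPM (n = 2), 204 ± 12.5 (n = 3) and 157 ± 18.7 (n = 3).

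Of the AlkB homologs and FTO, several remove methyl groups from nucleic acids, ALKBH5 and FTO from messenger RNA, ALKBH2 and ALKBH3 from damaged bases. ALKBH7 acts in mitochondria, and the substrate of ALKBH6 is poorly known. ALKBH6 (ENSG00000239382, chr19:36009120-36014239, minus strand) was 17.4 and 25.2 CPM in parental, 79.4, 61.1 and 29.1 in SDHB-KO and 67.6, 26.9 and 46.8 in SDHB-KO SDHA-low libraries. All knockout libraries were above both parental ones, but SDHB-KO replicate 3 and SDHB-KO SDHA-low replicate 2 only just. ALKBH6 rose 2.64-fold in the knockout contrast (log2 1.40, SE 0.45, adjusted p = 0.098 by edgeR). The call was lost without parental replicate 1 (log2 1.14), parental replicate 2 (1.68), SDHB-KO replicate 1 (1.09), SDHB-KO replicate 2 (1.33) or SDHB-KO SDHA-low replicate 3 (1.40). An unnamed gene, ENSG00000248101, shares its 3′ end on the same strand. In the double contrast the log2 difference was 1.12 (interval 0.18 to 2.06, adjusted p = 0.30 by edgeR).

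ALKBH2 showed its highest levels in the SDHB-KO SDHA-low cells. It was 16.2 and 23.9 CPM in parental, 27.4, 24.5 and 21.6 in SDHB-KO and 48.3, 38.1 and 34.5 in SDHB-KO SDHA-low libraries, and the last group overlapped neither of the others. The log2 difference against SDHB-KO cells was 0.72 (interval 0.05 to 1.38, adjusted p = 0.38 by edgeR). Neither messenger RNA demethylase was called. ALKBH5 differed by 0.36 on the log2 scale in the knockout contrast and FTO by -0.17, and neither had an unadjusted p below 0.05 in a comparison. ALKBH7 was the second most abundant member at 163, 192 and 167 CPM on average, and the interval of its difference in the knockout contrast ran from -0.24 to 0.72. ALKBH1 had 2 to 8 reads and was not tested. The TET enzymes, which oxidize methylcytosine in DNA, were hardly seen. TET1 had no read, TET2 at most 2 and TET3 at most 4 in a library.

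The JmjC histone demethylases, 16 of the members, remove methyl groups from histone lysines, and 9 of them were tested. No call was made in any comparison by edgeR, and 0, 3 and 2 had an unadjusted p below 0.05 in the 3 comparisons. Of all genes 12.1% did so in the knockdown and 12.3% in the double contrast. DESeq2 made no call either, but in the knockout contrast it gave only KDM2A and KDM2B an adjusted p. The median log2 fold change of the 9 was 0.21 in the knockout, 0.49 in the knockdown and 0.57 in the double contrast, where 8 of 9 were above 0. Over all tested genes the medians were -0.0007, 0.01 and 0.02, and 51.4% were above 0 in the double contrast. The class sum went from 249 and 244 CPM in the parental libraries over 279, 289 and 275 in SDHB-KO to 391, 313 and 344 in SDHB-KO SDHA-low libraries, and the groups did not overlap. No test was made of this sum, since the list was drawn up with results of these data known.

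KDM5A and KDM5C encode demethylases of the methyl mark at active promoters, and neither was called. In the knockdown contrast their log2 differences had opposite signs, -1.16 for KDM5A and 0.49 for KDM5C, while in the knockout contrast both were above 0. KDM5A was 10.4 and 26.5 CPM in parental, 34.21, 20.01 and 20.5 in SDHB-KO and 10.9, 8.21 and 14.5 in SDHB-KO SDHA-low libraries. Its log2 difference in the knockdown contrast was the largest in size of any tested member there, -1.16 (interval -2.08 to -0.23, adjusted p = 0.28 by edgeR). KDM5C was 13.9 and 15.9 CPM, then 19.2, 21.1 and 28.1, then 36.2, 27.6 and 33.4, with a log2 difference of 1.11 (interval 0.26 to 1.95, adjusted p = 0.25 by edgeR) in the double contrast. Of the reads of the 3 KDM5 genes, KDM5A held 30.6% to 44.6% in SDHB-KO libraries and 13.2% to 18.6% in SDHB-KO SDHA-low libraries. The parental libraries, at 24.3% and 47.6%, lay further apart than the nearest libraries of these groups. The counts behind the shares of both knockout groups were 50 to 78 reads, and the Wilson intervals of the nearest libraries, 20.6% to 43.0% and 10.7% to 30.4%, overlapped. PHF8, which acts on repressive marks, was 35.9 and 30.5 CPM in parental, 15.1, 23.4 and 30.2 in SDHB-KO and 54.3, 55.2 and 21.2 in SDHB-KO SDHA-low libraries. The third of these lay within the SDHB-KO range, and the log2 difference of 0.92 (interval 0.16 to 1.68) had an adjusted p of 0.30 by edgeR. KDM2B, which guards CpG islands, differed by 0.54 in the knockdown contrast and by 0.59 against parental cells, both with an unadjusted p below 0.05 only. Of the untested 7, KDM6A and KDM6B, the demethylases of the Polycomb mark, had 0 to 5 and 0 to 7 reads.

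RIOX1 belongs to the JmjC proteins that act mainly on other substrates. It is a nucleolar oxygenase known to hydroxylate a histidine of a ribosomal protein, and it was the member with the largest fold change among those called. RIOX1 (ENSG00000170468, chr14:73490933-73493394, plus strand) was 27.8 and 30.5 CPM in parental, 93.0, 82.3 and 83.1 in SDHB-KO and 57.9, 71.6 and 52.4 in SDHB-KO SDHA-low libraries. The 3 groups did not overlap, with the parental libraries lowest and the SDHB-KO libraries highest. RIOX1 rose 2.95-fold in the knockout contrast (log2 1.56, SE 0.30, adjusted p = 0.0088 by edgeR and 0.0017 by DESeq2). In the knockdown contrast the difference was -0.49 (interval -0.98 to -0.003, adjusted p = 0.41 by edgeR). Against parental cells it was 1.07 (interval 0.44 to 1.69, adjusted p = 0.14 by edgeR). The test among the 3 groups gave an adjusted p of 0.017 by edgeR. HEATR4 runs across RIOX1 on the other strand, and which strand column was deposited is not given in the sources used here. Without parental replicate 1 the log2 difference was 1.48 and without parental replicate 2 it was 1.62, but the call was lost in both cases, at an adjusted p of 0.29 and 0.11 by edgeR. Leaving out any 1 of the other 6 libraries kept the call.

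None of the other JmjC proteins of this class was called. RIOX2 had 1 to 9 reads, so that RIOX1 gave 87.3% to 98.6% of the reads of the pair. JMJD6, an arginine and lysine oxygenase, differed by -0.08 on the log2 scale in the knockout contrast with an interval inside -1 to 1, and KDM8, with 1 to 16 reads, by 0.60. HSPBAP1 had 1 to 10 reads and was not tested.

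**Figure D3:**
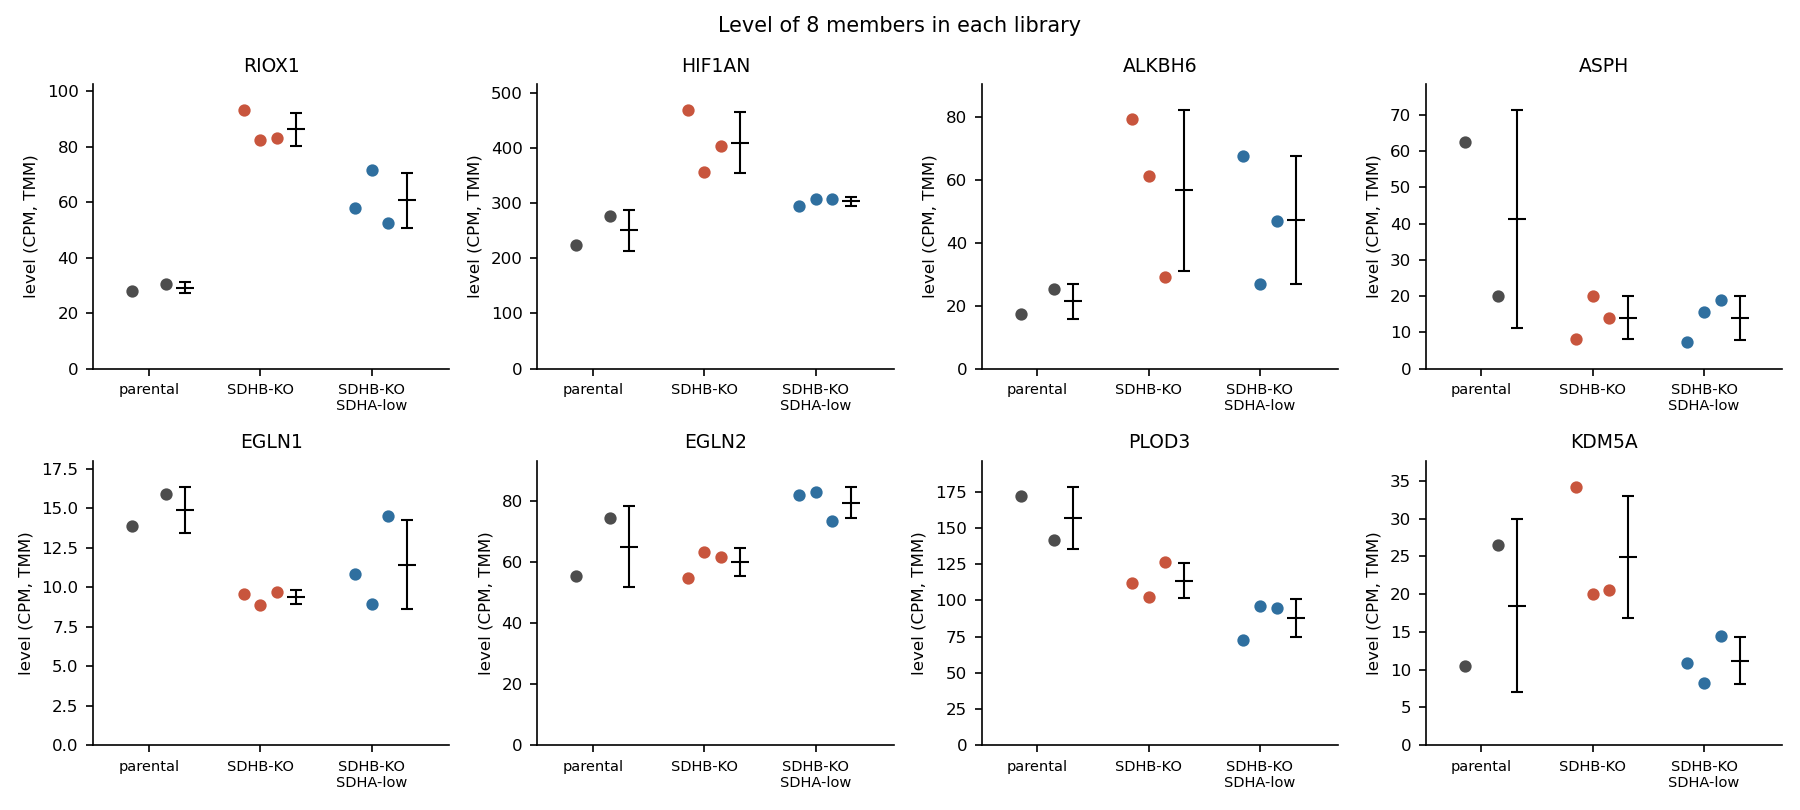
Level of 8 members in CPM after TMM scaling in each library, with the mean and SD of the group (n = 2, 3 and 3) beside the points. RIOX1 and HIF1AN are lowest in both parental libraries and highest in SDHB-KO, the ALKBH6 libraries scatter widely, and parental replicate 1 stands alone in ASPH.

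ASPH, which hydroxylates aspartates of secreted proteins, had the lowest log2 fold change of the tested members in the knockout and double contrasts. It was 62.5 and 19.9 CPM in parental, 8.21, 20.01 and 14.03 in SDHB-KO and 7.24, 15.7 and 18.9 in SDHB-KO SDHA-low libraries. Only parental replicate 1 stood apart, and the other parental library lay within or next to the knockout range. The log2 difference was -1.53 (interval -2.57 to -0.50) in the knockout contrast, with an adjusted p of 0.101 by edgeR, just outside the threshold that ALKBH6 passed at 0.098. Without parental replicate 1 it was -0.48, with an adjusted p of 0.88 by edgeR. In the double contrast it was -1.55 (adjusted p = 0.17 by edgeR) and without that library -0.50. OGFOD1, which hydroxylates a ribosomal protein, and OGFOD3 were at 37.5 to 42.6 and 64.5 to 78.3 CPM on average and were not called, and OGFOD2 had at most 2 reads. Of the small-molecule hydroxylases, PHYH of phytanic acid oxidation had 6 to 17 reads and an interval from -0.34 to 2.09 in the knockout contrast. BBOX1 and TMLHE, of carnitine synthesis, had none.

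**Figure D4:**
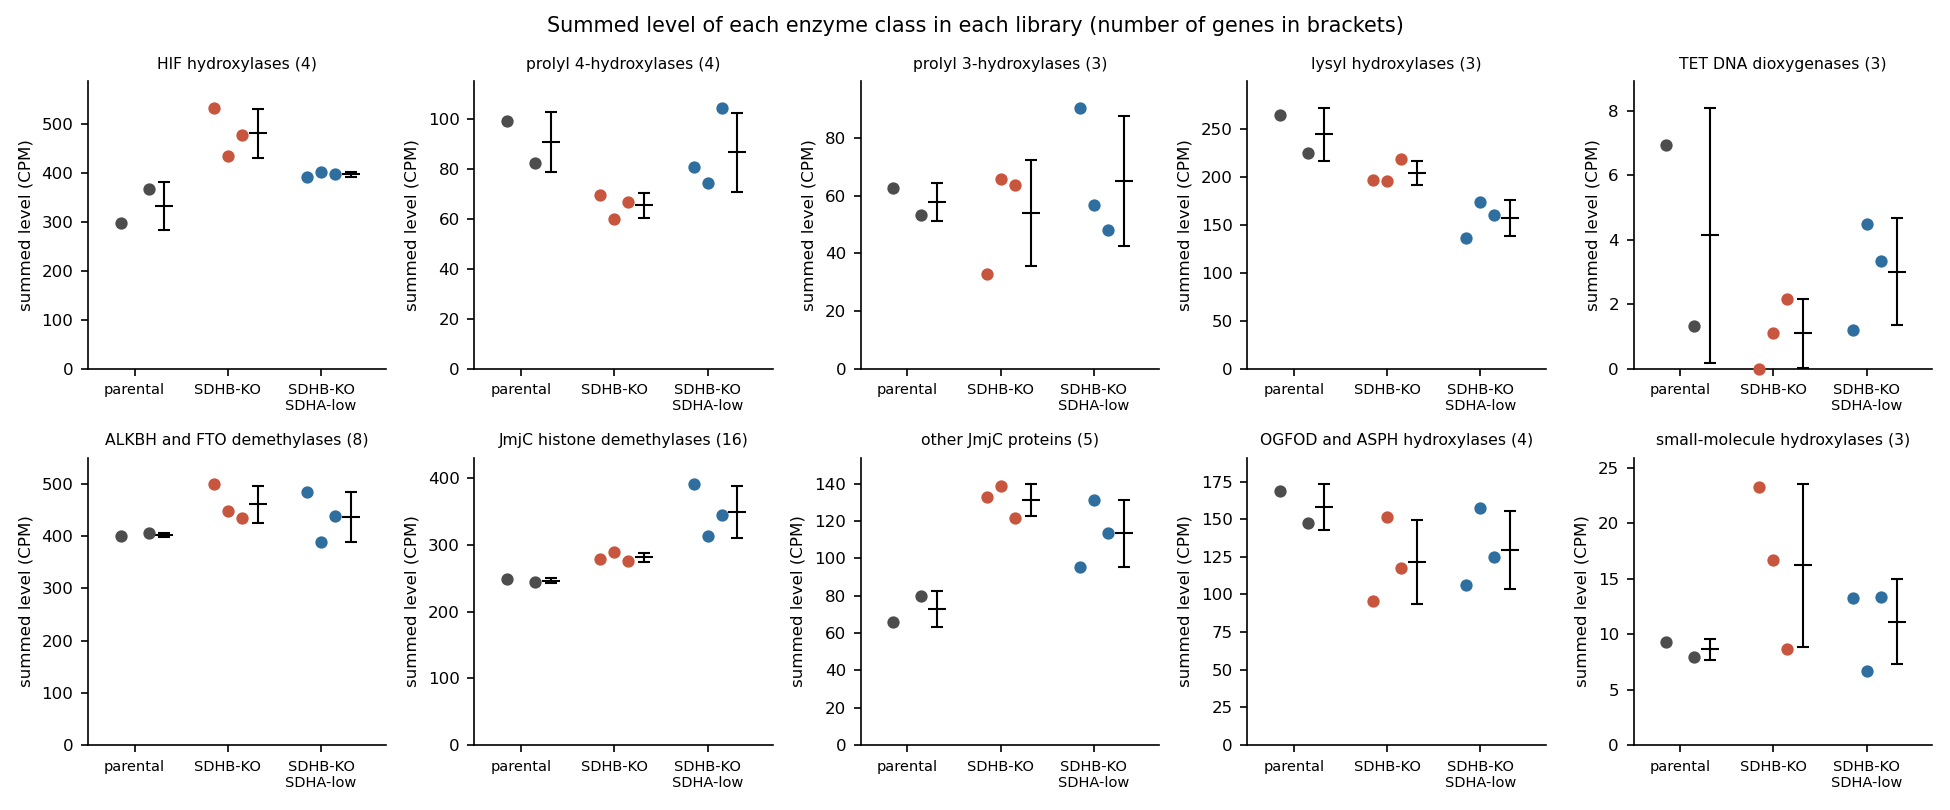
Sum of the levels of all listed members of each enzyme class in CPM, tested or not, in each library, with the mean and SD of the group (n = 2, 3 and 3). The other JmjC proteins, led by RIOX1, and the HIF hydroxylases, led by HIF1AN, are lowest in the parental libraries, and the TET sums stay below 8 CPM.

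Over all 53 members the summed level was 1622 and 1613 CPM in parental, 1864, 1800 and 1785 in SDHB-KO and 1790, 1707 and 1748 in SDHB-KO SDHA-low libraries. All libraries of both knockout groups were above the parental ones. This sum includes the called HIF1AN and RIOX1, so it is no result apart from theirs. HIF1AN rose from 251 to 411 CPM and RIOX1 from 29.2 to 86.1 CPM on average between parental and SDHB-KO cells. In SDHB-KO SDHA-low cells they averaged 304 and 60.6 CPM, and the JmjC histone demethylases together 349 CPM.

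Among 6 proteins that work beside the collagen hydroxylases, CRTAP and COLGALT1 fell in the knockout contrast and both rose in the knockdown contrast. Of all tested genes 5.54% were called in the knockout contrast and 1.51% in the knockdown contrast. CRTAP, the cartilage protein that forms a complex with P3H1, was 585 and 588 CPM in parental, 242, 279 and 278 in SDHB-KO and 355, 791 and 477 in SDHB-KO SDHA-low libraries. CRTAP fell by 1.14 on the log2 scale (SE 0.26, adjusted p = 0.022 by edgeR) in the knockout and was 1.02 higher (SE 0.23, adjusted p = 0.034 by edgeR) with the knockdown added. COLGALT1, which adds galactose to the hydroxylysine that the PLOD enzymes make, was 1100 and 1191 CPM in parental, 475, 489 and 449 in SDHB-KO and 727, 668 and 839 in SDHB-KO SDHA-low libraries. Its changes were -1.28 (adjusted p = 0.0027) and 0.66 (adjusted p = 0.090), both by edgeR. The same SDHB-KO libraries enter both contrasts with opposite sign. In the double contrast neither passed by edgeR, and DESeq2 called COLGALT1 (log2 -0.62 and adjusted p = 0.17 by edgeR, adjusted p = 0.063 by DESeq2). The calls of CRTAP were lost without SDHB-KO replicate 1, at -1.07 and 0.96. Its fall was also lost without either parental library, and its rise without SDHB-KO replicate 3. The fall of COLGALT1 was lost without parental replicate 1, and its rise was kept only without SDHB-KO SDHA-low replicate 2 among the 8 libraries left out in turn. P4HB, PPIB, SERPINH1 and FKBP10 were not called, and P4HB, the beta subunit of the prolyl 4-hydroxylase, was 363, 411 and 426 CPM on average. Of the collagen chains, 6 of 18 were tested, none was called by edgeR or DESeq2 and 1 had an unadjusted p below 0.05 in each comparison. All 6 had a log2 difference below 0 in the knockout contrast (median -0.49) and in the double contrast (median -0.88). In the knockdown contrast 5 of the 6 did. Over all tested genes 49.9% of the differences were above 0 in the knockout contrast and 51.4% in the double contrast.

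Of the enzymes and carriers that make or use 2-oxoglutarate and succinate, 18 of 25 were tested. In the knockout contrast 1 rose and 3 fell, where 5.54% of all tested genes were called. In the knockdown contrast 1 rose and 1 fell, beside 1.51% of all genes, and in the double contrast 1 fell, beside 0.914%. SLC25A11, the 2-oxoglutarate carrier of the mitochondrial inner membrane, was 165 and 135 CPM in parental, 291, 231 and 308 in SDHB-KO and 120, 143 and 95.8 in SDHB-KO SDHA-low libraries. SLC25A11 rose by 0.88 on the log2 scale (adjusted p = 0.058 by edgeR) in the knockout and fell by 1.21 (adjusted p = 0.0071 by edgeR) with the knockdown added. SLC25A1, the citrate carrier, went the other way, from 469 to 164 and 346 CPM on average, with changes of -1.51 (adjusted p = 0.0027) and 1.07 (adjusted p = 0.014), both by edgeR. For both carriers the same SDHB-KO libraries enter both contrasts. PSAT1, whose reaction in serine synthesis yields 2-oxoglutarate, fell by 1.42 (adjusted p = 0.039 by edgeR), and SLC25A10, the carrier of succinate and malate, fell by 0.86 (adjusted p = 0.099 by edgeR). IDH3B, a subunit of the 2-oxoglutarate-producing dehydrogenase, fell by 0.82 in the double contrast (adjusted p = 0.092 by edgeR). DESeq2 called 2 of these 4 genes in the knockout contrast, SLC25A11 and SLC25A1. It gave SLC25A10 an adjusted p of 0.1045 and PSAT1 no adjusted p. In the knockdown contrast DESeq2 called IDH3B too (adjusted p = 0.068, against 0.17 by edgeR). The fall of SLC25A11 in the knockdown contrast passed with any library left out, and that of SLC25A1 in the knockout contrast was lost only without parental replicate 1. The rise of SLC25A1 was lost without SDHB-KO replicate 1 (log2 0.90). The calls of PSAT1, SLC25A10 and IDH3B and the rise of SLC25A11 were each lost without either parental library and without SDHB-KO replicate 1, and some without further libraries.

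HIF and the genes it drives stand downstream of the HIF hydroxylases. Of 24 HIF pathway genes and targets 15 were tested, and 0 were called by edgeR in any comparison, with 3, 1 and 2 at an unadjusted p below 0.05 and 1, 0 and 0 called by DESeq2. Over all genes the share at an unadjusted p below 0.05 was 12.1% in the knockdown and 12.3% in the double contrast. It was not determined for the knockout contrast, for this list or for those below. The gene called by DESeq2, named here after its value was seen, was LDHA, at 368 and 232 CPM on average in parental and SDHB-KO cells. The median log2 fold change of the list was -0.29 in the knockout contrast, where 6 of 15 were above 0. CA9 had no read, and VEGFA, EPAS1 and PDK1 were below the minimum for a test. Of 11 tested writers and readers of methylated messenger RNA 1 was called by edgeR, in the double contrast, where 0.914% of all genes were. It was RBM15B, a subunit of the RNA methyltransferase complex, which rose by 1.12 on the log2 scale in the double contrast (adjusted p = 0.076 by edgeR), from 134 and 103 CPM to 217, 343 and 214. DESeq2 called RBM15B in the double contrast (adjusted p = 0.020) and also in the knockout contrast, where the log2 difference was 0.75 (adjusted p = 0.13 by edgeR and 0.091 by DESeq2). The edgeR call of RBM15B was lost without any 1 of 5 libraries, both parental ones among them. Of 21 tested histone lysine methyltransferases none was called by edgeR or DESeq2, with 2, 1 and 1 at an unadjusted p below 0.05 in the 3 comparisons. Of 10 DNA methylation writers and readers none was called by edgeR, with 1, 2 and 0 at an unadjusted p below 0.05, and DESeq2 called 1 in the knockout contrast. This was DNMT1, also named after its value was seen, with a log2 difference of -0.66 (adjusted p = 0.13 by edgeR).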

How the data were processed

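Raw counts per gene and normalized values were deposited for each of the 8 libraries. For the raw counts the authors trimmed reads with Trimmomatic, removed ribosomal and mitochondrial reads, aligned them to GRCh38 and counted them with STAR 2.5.2b. The deposited normalized signal values equal the counts over 1 scaling factor per sample. Here the values labelled SDHB-KO replicate 1 match the raw counts of replicate 3 and the reverse. Only raw counts, with the labels of their own files, were tested, and reads on no single gene (18.8% to 28.6% of a library) stayed out. Symbols, positions and overlaps came from GENCODE release 44 on GRCh38, a later release than the authors'.

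Genes with a DESeq2 BaseMean above 5 were fitted by edgeR 4.0.16 (R 4.3.3, TMM, quasi-likelihood F test, biological coefficient of variation 21.5%, 5 residual degrees of freedom) with all 8 libraries and 3 groups in 1 fit. A gene was called below an adjusted p of 0.1. Wilson intervals and the floor of 3 counts cover counting error only. DESeq2 1.42.0, its size factors, other filters, fits of 2 groups, a replicate block, each library left out and an adjusted p of 0.05 were the alternatives. Replicate numbers did not pair the libraries (7 pairs, correlations -0.27 to 0.093).

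The members, gene lists and tests were chosen with earlier results of these data known. Named with values were all members called in any comparison, the 3 tested members with the largest absolute log2 fold change in each comparison, the 4 HIF hydroxylases, SDHA, SDHB and called genes of the other lists up to 5 a list. P4HA1, PLOD3 and the remaining members were added to describe the classes.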

Additional observations from a re-analysis of the deposited data

How the results depend on the processing

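No alternative reversed a called change. Of 15 alternatives, the rise of RIOX1 in the knockout contrast passed in 13, that of HIF1AN in 8 and that of ALKBH6 in 7, with log2 ranges of 1.48 to 1.62, 0.56 to 0.87 and 1.09 to 1.74. In the knockout contrast the number of called members was 1 at an adjusted p below 0.05, 1 with the replicate block and 1 with that block after exchanging SDHB-KO numbers 1 and 3, an alternative added after the data were seen, each time RIOX1. With each library left out it was 0 to 4, with 0 without parental replicate 1 and ASPH alone without parental replicate 2, where the lone parental library was assumed to vary like the other groups. In the knockdown contrast the number was 0 under every alternative run. In the double contrast it was 1 (ASPH) without a filter on low counts and 0 to 2 with each library left out, with ALKBH6 and PLOD3 called without SDHB-KO SDHA-low replicate 2. Among the 3 groups it was 2 by DESeq2, 3 without the filter and 0 to 5 with each library left out, with 5 without SDHB-KO SDHA-low replicate 2. Over all genes, the 418, 114, 69 and 330 calls of the knockout, knockdown and double contrasts and of the test among groups became 171, 64, 13 and 190 at an adjusted p below 0.05. With the replicate block they became 199, 59, 12 and 164, and with the exchanged numbers 94, 49, 8 and 103. Fits of only the 2 groups compared gave 777, 64 and 7 calls. Without the filter, calls in the double contrast became 152 and those among groups 518. With each library left out the ranges were 0 to 846, 39 to 375, 4 to 173 and 42 to 922, and the highest of each came without SDHB-KO SDHA-low replicate 2. The cause was not tested. The precision is limited by 2 parental libraries and by at most 1427141 reads a library.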
